A study of Mus musculus with 189 samples.

Results

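The Bcl2 family sets whether a cell keeps its mitochondria intact. The genes examined were 10 of its members, chosen by symbol: the anti-apoptotic Bcl2, Bcl2l1, Mcl1, Bcl2a1b and Bcl2a1d, the pore-forming effectors Bax and Bak1, and the BH3-only genes Bcl2l11, Bid and Bad. They were 10 of 46078 gene rows in a table of read counts, and 8 of them had a read in at least 1 cell. The cells were single cells of the peritoneal cavity of 4 female C57BL/6 mice, of which no age or further genotype is given in the sources used here. The labels name 94 mature mast cells, sorted as live, lineage-negative, c-Kit-positive and FcεRI-positive cells with low integrin β7 and high side scatter. They also name 95 basophil-mast cell progenitors (BMCPs), sorted alike for c-Kit and FcεRI but with high integrin β7 and low side scatter. Neither group had received a treatment that the labels mention.

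Proteins such as Bcl-2, Bcl-xL (encoded by Bcl2l1) and Mcl-1 hold Bax and Bak in check and bind the BH3-only proteins, which signal damage, loss of growth factor or receptor signals. When the BH3-only proteins outweigh them, Bax and Bak open the outer mitochondrial membrane and caspases are activated. Mast cells are long-lived tissue cells that depend on stem cell factor through Kit, and Bcl-2 family proteins are known to act in their survival, with the Bcl2a1 genes induced in mast cells activated through the IgE receptor.

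Levels are given as CPM, a gene's reads scaled to the same total of reads on endogenous genes in every cell. A total of 187 cells with at least 100000 such reads was kept, 94 mature mast cells and 93 BMCPs, with 561600 to 2152221 reads in a mature mast cell and 344022 to 2091665 in a BMCP. No cell was assigned to a mouse, so each group was 1 pooled sample, no test was made, and all intervals are 95% and cover counting error only. Reads carried no molecular identifiers, so PCR copies were counted as separate reads. The mast cell list (Kit, Fcer1a, Ms4a2, Cpa3, Cma1, Tpsb2, Mcpt4 and Hdc) summed to a median of 274479 CPM per mature mast cell and 161600 CPM per BMCP. In BMCP 46 and BMCP 80 it summed to 363 and 505 CPM, against at least 24175 CPM in the other 91 BMCPs. The B cell genes Cd79a, Cd79b, Ms4a1, Ighm and Cd74 together reached 66922 and 71053 CPM in those cells and at most 1575 CPM in the other BMCPs. These libraries went against their label, and results that rest on them are given with and without them.

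Most cells of each group had a member at 50 reads or more, but few members at a time. A mature mast cell had a median of 1 member at 50 reads or more and a maximum of 4, and a BMCP had the same median and maximum. No member reached 50 reads in 15 of 94 mature mast cells (15.96%, exact Clopper-Pearson interval 9.22 to 24.95) and in 20 of 93 BMCPs (21.5%, 13.7 to 31.2). Such patchy detection was common in these libraries: over the 10556 genes that reached 5 CPM in one group or both, the median gene had 50 reads in 12.8% of mature mast cells and 10.8% of BMCPs. A cell without reads is therefore one in which the transcript was not detected, not one shown to lack it.

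**Figure D1:**
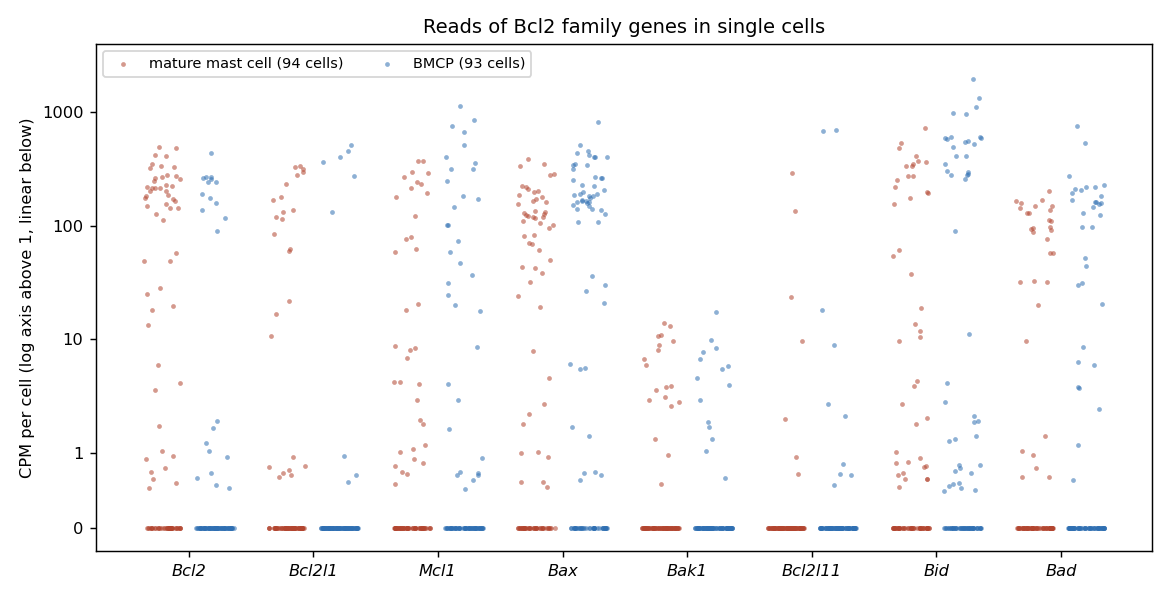
Level of each of the 8 detected genes in every kept cell, as CPM on an axis that is logarithmic above 1 and linear below, for 94 mature mast cells (red) and 93 BMCPs (blue), each point a cell. Most cells lie at 0 for most genes, Bcl2 has 36 mature mast cells and 13 BMCPs at 50 reads or more, and the highest single value is the 1977 CPM of Bid in a BMCP.

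Of the anti-apoptotic genes, Bcl2, the founding member of the family, was the one higher in mature mast cells by more than 2-fold. Bcl2 (ENSMUSG00000057329; chromosome 1, 106538178 to 106714274 on the minus strand of GRCm38, protein coding) ranged from 0 to 490 CPM over mature mast cells with a median of 0.94, and from 0 to 438 CPM over BMCPs with a median of 0. The ranges overlapped almost entirely, and what differed was how many cells lay in the upper part. Pooled, Bcl2 had 92.9 CPM in the mature cells (exact Poisson interval 91.2 to 94.7) against 29.9 CPM in the BMCPs (28.97 to 30.9). This is a 3.04-fold difference and a log2 ratio of 1.60, each ratio being log2 of mature CPM + 1 over BMCP CPM + 1. At least 50 Bcl2 reads were found in 36 of the 94 mature cells (38.3%, 28.5 to 48.9) and 13 of the 93 BMCPs (13.98%, 7.66 to 22.7); these intervals were separate. After every cell was thinned to 100000 reads, 41 mature mast cells and 14 BMCPs still had a Bcl2 read. In the cells with at least 50 reads the mean Bcl2 level was 231.5 CPM in the mature cells against 219.2 CPM in the BMCPs. So the share of cells differed by 1.45 on the log2 scale and the level within them by 0.08. No single cell carried the pooled difference: the ratio lay between 1.49 and 1.81 as each cell was left out in turn.

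Bcl2l1, which encodes Bcl-xL, was detected in more mature mast cells but at a higher level in the few BMCPs that had it. Bcl2l1 (ENSMUSG00000007659; chromosome 2, 152780668 to 152831728, minus strand) ranged from 0 to 338 CPM in mature mast cells and from 0 to 518 CPM in BMCPs, with a median of 0 in each group. At least 50 reads were found in 15 mature mast cells (15.96%, 9.22 to 24.95) and in 6 BMCPs (6.45%, 2.40 to 13.5), intervals that overlapped. The mean over those cells was 190.4 CPM in the mature cells against 358.5 CPM in the BMCPs. Share and level thus ran in opposite directions, and the pooled levels of 31.7 CPM in the mature cells against 24.1 CPM in the BMCPs gave a log2 ratio of only 0.38. BMCP 25 alone held 33.5% of the BMCPs' Bcl2l1 reads, and without it the ratio was 0.92. Without mature mast cell 77 it was 0.15.

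Mcl1, whose protein is short-lived and turned over quickly, was higher in BMCPs when reads were pooled. Mcl1 (ENSMUSG00000038612; chromosome 3, 95658788 to 95663176, plus strand) ranged from 0 to 374 CPM in mature mast cells and from 0 to 1141 CPM in BMCPs, again with medians of 0. About as many cells of each group had any Mcl1 read, 36 of 94 mature mast cells and 34 of 93 BMCPs. At least 50 reads were found in 14 mature mast cells (14.9%, 8.39 to 23.7) and in 18 BMCPs (19.4%, 11.9 to 28.9). The pooled level was 32.8 CPM in the mature cells (31.8 to 33.9) against 74.9 CPM in the BMCPs (73.3 to 76.4), for a log2 ratio of -1.16. Both cells that carried B cell genes stood high for Mcl1, BMCP 46 with 854 CPM and BMCP 80 with 752 CPM. Without them the BMCP level was 56.3 CPM, with 50 reads in 16 of 91 cells (17.6%, 10.4 to 26.98). The ratio was then -0.76, which is under 2-fold.

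Bcl2a1b and Bcl2a1d encode copies of A1, an anti-apoptotic protein of blood cells, and had 0 reads in every cell. By counting alone this leaves room for up to 0.0252 CPM in the mature cells and 0.0251 CPM in the BMCPs, taking 3 reads as the limit. The copies are nearly the same in sequence, which bears on what 50-base reads could show. Bcl2a1b (ENSMUSG00000089929) lies on chromosome 9 at 89199209 to 89207827 on the plus strand of GRCm38. Bcl2a1d (ENSMUSG00000099974) lies on chromosome 9 at 88723285 to 88731914 on the minus strand. Their coding sequences of 516 bases differ at 6 positions and are 98.8% identical. The first 120 coding bases, from the GENCODE M21 transcripts, are printed with those of the further copy Bcl2a1a. Capitals mark the 7 positions in this stretch at which the copies are not all the same.
Bcl2a1a: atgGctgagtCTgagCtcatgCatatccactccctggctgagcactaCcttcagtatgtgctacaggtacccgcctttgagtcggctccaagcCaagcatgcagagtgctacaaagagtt
Bcl2a1b: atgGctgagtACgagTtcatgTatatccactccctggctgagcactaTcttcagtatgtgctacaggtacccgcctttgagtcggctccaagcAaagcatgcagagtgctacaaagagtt
Bcl2a1d: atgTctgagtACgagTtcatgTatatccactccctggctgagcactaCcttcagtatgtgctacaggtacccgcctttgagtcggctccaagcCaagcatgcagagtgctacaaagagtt

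Of the 50-base stretches in Bcl2a1b transcripts, 79.2% also occurred in a transcript of another gene, and for Bcl2a1d the share was 79.5%. In addition, 49.1% of the exon bases of Bcl2a1b lie in exons of the overlapping Gm29094. The copies Bcl2a1a and Bcl2a1c and the gene Gm29094 had 0 reads as well. Every cell also had a 0 in the table's summary row for multiply aligned reads. Whether such reads were dropped before counting cannot be told from the table, so the zeros are listed here as zeros and not as absence of A1 RNA. Of all gene rows, 23332 (50.6%) had 0 reads in every kept cell.

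The effectors split into a well detected and a barely detected gene. Bax (ENSMUSG00000003873; chromosome 7, 45461697 to 45466898, minus strand) was the most widely detected member at 50 reads in BMCPs, and of the 10 genes it had the highest level per kilobase of exon in both groups, 39.6 CPM per kb in mature mast cells and 70.96 CPM per kb in BMCPs. It ranged from 0 to 385 CPM in mature mast cells with a median of 1.00, and from 0 to 821 CPM in BMCPs with a median of 5.43. At least 50 reads were found in 34 mature mast cells (36.2%, 26.5 to 46.7) and in 40 BMCPs (43.01%, 32.8 to 53.7), intervals that overlapped. The pooled level was 62.4 CPM in the mature cells (60.9 to 63.8) against 111.8 CPM in the BMCPs (109.9 to 113.7), for a log2 ratio of -0.83. Within the cells at 50 reads the mean was 164.8 CPM in the mature cells against 256.8 CPM in the BMCPs.

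Bak1 (ENSMUSG00000057789; chromosome 17, 27019810 to 27029009, minus strand), the other effector, had 1.05 CPM in the mature cells against 0.803 CPM in the BMCPs, and its log2 ratio of 0.19 had a counting interval of -0.20 to 0.57. Reads were found in 19 mature mast cells and 15 BMCPs, with no cell at 50 reads and a highest value of 17.5 CPM. Per kilobase, Bax stood at 39.6 CPM against 0.437 CPM for Bak1 in mature mast cells, and at 70.96 CPM against 0.334 CPM in BMCPs.

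All 3 BH3-only genes had higher pooled levels in BMCPs, and in none of them did the share of cells at 50 reads differ beyond its interval. Bid links death receptors to the mitochondria once caspase 8 has cut it. Bid (ENSMUSG00000004446; chromosome 6, 120891930 to 120916853, minus strand) ranged from 0 to 722 CPM in mature mast cells and from 0 to 1977 CPM in BMCPs, with medians of 0. The pooled level was 62.96 CPM in the mature cells (61.5 to 64.4) against 155.7 CPM in the BMCPs (153.5 to 158.0), for a log2 ratio of -1.29. At least 50 reads were found in 20 mature mast cells (21.3%, 13.5 to 30.9) and in 24 BMCPs (25.8%, 17.3 to 35.9). In those cells the mean was 290.9 CPM in the mature cells against 603.0 CPM in the BMCPs. The BMCPs' excess of Bid thus lay mainly in the level per cell: the log2 ratio was -1.05 for the level and -0.28 for the share of cells. BMCP 28 held 18.2% of the BMCPs' reads, and without it the ratio was -1.03. BMCP 80 had 989 CPM of Bid and BMCP 46 had 1 read, and without both the BMCP level was 152.3 CPM.

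Bad, a BH3-only protein that growth factor signalling keeps inactive by phosphorylation, followed the same order at lower levels. Bad (ENSMUSG00000024959; chromosome 19, 6941861 to 6951899, plus strand) ranged from 0 to 201 CPM in mature mast cells and from 0 to 765 CPM in BMCPs, with medians of 0. The pooled level was 25.4 CPM in the mature cells (24.5 to 26.4) against 47.9 CPM in the BMCPs (46.7 to 49.2), for a log2 ratio of -0.89. At least 50 reads were found in 19 mature mast cells (20.2%, 12.6 to 29.8) and in 21 BMCPs (22.6%, 14.6 to 32.4). BMCP 51 held 20.1% of the BMCPs' Bad reads, and without it the ratio was -0.59.

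Bcl2l11 encodes Bim, a BH3-only protein known to act when mast cells lose their growth factor. Bcl2l11 (ENSMUSG00000027381; chromosome 2, 128126038 to 128162547, plus strand) had reads in 7 mature mast cells and 10 BMCPs and reached 50 reads in only 2 cells of each group. The mature cells among them had 134 and 292 CPM, and the BMCPs had 684 and 701 CPM. The pooled values of 5.36 CPM in the mature cells against 18.7 CPM in the BMCPs therefore describe a handful of cells, although the log2 ratio of -1.63 was the lowest of the 8 genes. Mature mast cell 21 held 62.5% of its group's reads and BMCP 25 held 57.2% of its group's. Leaving out the first gave -2.70 and leaving out the second gave -0.52. BMCP 25 was also the highest BMCP for Bcl2l1.

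**Figure D2:**
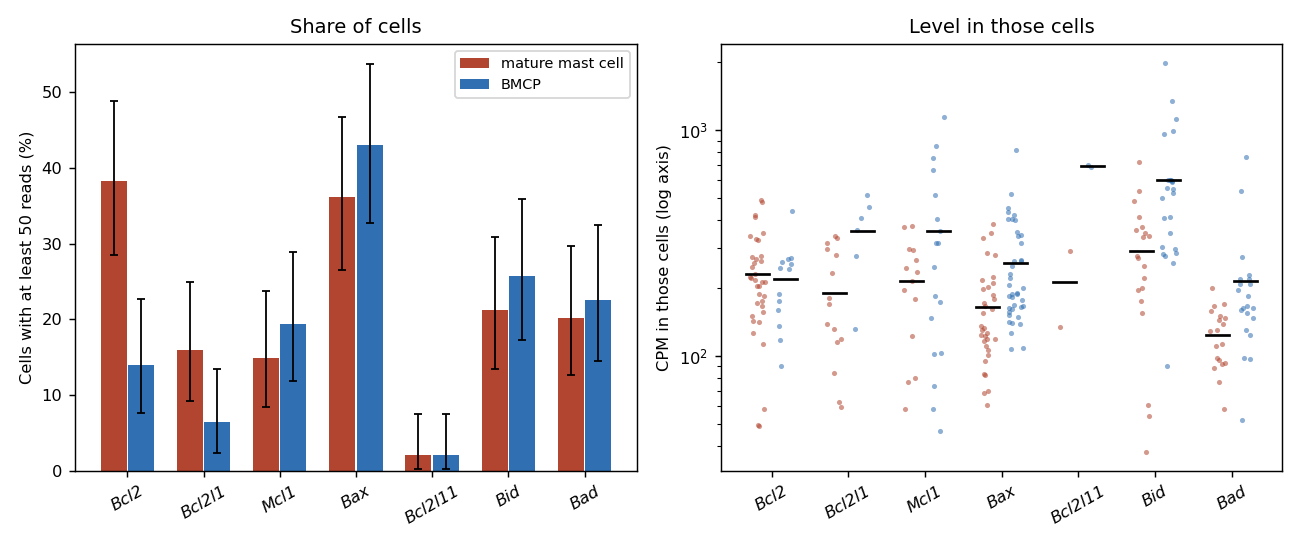
Left, the share of cells with at least 50 reads of each gene, with exact Clopper-Pearson intervals, in mature mast cells (red) and BMCPs (blue). Right, CPM on a log axis in those cells only, each point a cell and each line the mean. Bcl2 differs in share (38.3% against 13.98%) with like means (231.5 and 219.2 CPM), whereas Bid differs in mean (290.9 against 603.0 CPM) with overlapping shares.

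Across the 7 members that reached 5 CPM in one group or both, 4 differed by 2-fold or more (57.1%), against 29.1% of the 10556 genes at that level. Bcl2 was the 1 gene higher in mature mast cells, where 9.90% of all genes were. Mcl1, Bcl2l11 and Bid were the 3 higher in BMCPs, where 19.2% of all genes were. The median log2 ratio of the 7 was -0.89 and their mean -0.55, beside a median of -0.25 over all 10556 genes. These shares describe 7 genes, among which the ratios of Bcl2l11 and Mcl1 each fell under 2-fold when 1 cell, BMCP 25 or BMCP 46, was left out, and they are not a test of the list. In 6 of the 7 genes, all but Bcl2, the mean level in cells at 50 reads was lower in mature mast cells. That was also the general pattern, with a median log2 difference of -0.54 for this mean over 9841 genes, and a median of 0.25 for the share of cells.

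Scaling moved all of these ratios together. With reads counted per read of the ERCC spike-in RNA added to each well, the median of all genes shifted from -0.25 to 0.67, and the Bcl2 ratio was 2.50. Bid, Mcl1 and Bcl2l11 were then at -0.39, -0.27 and -0.81, none of them at 2-fold, and Bcl2l1 was at 1.26. Bax and Bad, at 0.07 and 0.000305, did not have a lower level in mature mast cells on that scale, but like the other BH3-only genes and Mcl1 they lay below the median of all genes. BMCP 55, a cell rich in ERCC reads, decided these directions: without it Bax was at -0.14 and Bad at -0.21, and Bcl2l11 was just past 2-fold at -1.0005. Bid and Mcl1 were then at -0.60 and -0.40, Bcl2 at 2.29 and Bcl2l1 at 1.06, beside a median of 0.47 over all genes. Per ERCC read, the median mature mast cell had 939 endogenous reads and the median BMCP 562.

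**Figure D3:**
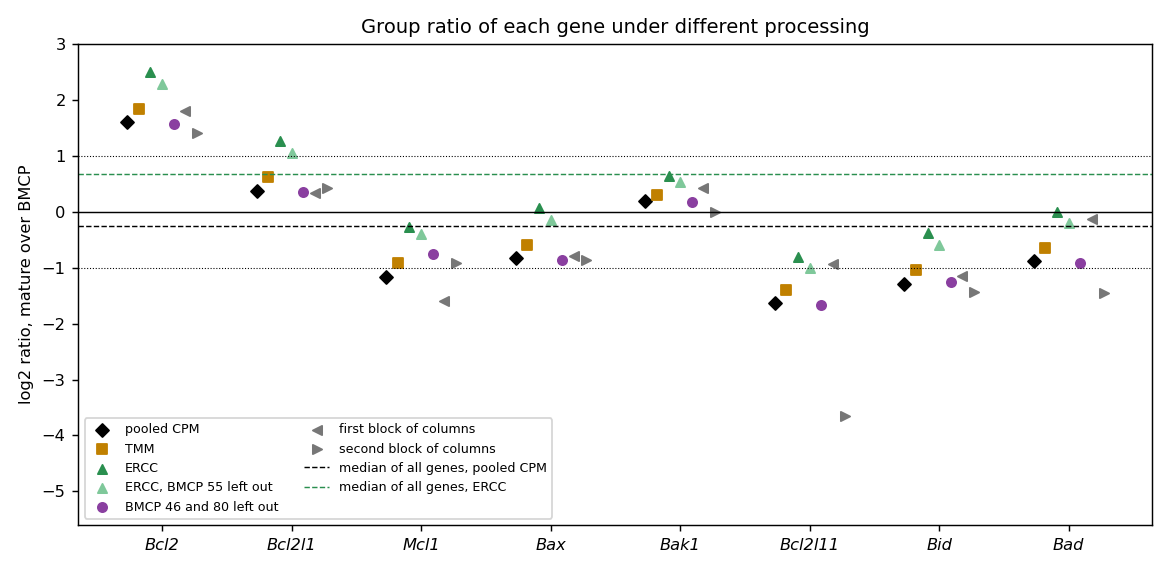
Log2 ratio of mature mast cells over BMCPs for the 8 detected genes under pooled CPM and other processing, with dotted lines at 2-fold and dashed lines at the median of all genes under pooled CPM (-0.25) and ERCC scaling (0.67). Bcl2 stays between 1.42 and 2.50 in all of them, while Bcl2l11 spans -3.66 to -0.81.

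Summed over genes, the anti-apoptotic members had 157.5 CPM in the mature cells against 129.0 CPM in the BMCPs, giving a log2 ratio of 0.29. Without BMCP 46 and BMCP 80 the BMCP sum was 111.7 CPM and the ratio 0.49. The pro-apoptotic members had 157.2 and 334.9 CPM, a log2 ratio of -1.09, and 335.7 CPM in the BMCPs without those cells. Cell by cell, at least 50 reads of an anti-apoptotic member were found in 55 of the 94 mature cells (58.5%, 47.9 to 68.6) and 31 of the 93 BMCPs (33.3%, 23.9 to 43.9). For a pro-apoptotic member the numbers were 57 mature mast cells (60.6%, 50.02 to 70.6) and 66 BMCPs (70.97%, 60.6 to 79.9). The intervals separated the groups for an anti-apoptotic member and overlapped for a pro-apoptotic one. Gene by gene at 50 reads, of the anti-apoptotic members only Bcl2 had separate intervals, in 36 mature mast cells against 13 BMCPs. Bcl2l1, in 15 against 6 cells, and Mcl1, in 14 against 18, had overlapping intervals, and Mcl1 ran the other way. Bcl2a1b and Bcl2a1d had 0 reads. Cells with only pro-apoptotic members at that level numbered 24 of 94 mature mast cells and 42 of 93 BMCPs, and cells with only anti-apoptotic members 22 and 7. Both kinds were found in 33 mature mast cells and 24 BMCPs. Among the 91 BMCPs other than BMCP 46 and BMCP 80, 29 had an anti-apoptotic member at 50 reads (31.9%, 22.5 to 42.5) and 65 a pro-apoptotic one (71.4%, 61.001 to 80.4).

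Each cell's anti-apoptotic share was taken as CPM per kilobase of the anti-apoptotic members over that of all 10. It had a median of 26.3% over the mature cells (quartiles 1.55% and 81.8%) and of 0.389% over the BMCPs (quartiles 0 and 30.9%). The spread within a group was wide: 11 mature mast cells and 7 BMCPs had reads of anti-apoptotic members only, and 13 and 40 had reads of pro-apoptotic members only. From pooled CPM in place of the cells' median, the share in BMCPs was 18.3%.

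The anti-apoptotic gene with most reads per kilobase was most often Bcl2 in a mature mast cell and most often Mcl1 in a BMCP. Among the 80 mature mast cells with any such read, Bcl2 led in 40 (50.0%, 38.6 to 61.4), Mcl1 in 26 (32.5%, 22.4 to 43.9) and Bcl2l1 in 14 (17.5%, 9.91 to 27.6). Among 51 BMCPs, Mcl1 led in 28 (54.9%, 40.3 to 68.9), Bcl2 in 15 (29.4%, 17.5 to 43.8) and Bcl2l1 in 8 (15.7%, 7.02 to 28.6). The intervals of the groups overlapped for each gene. Without BMCP 46 and BMCP 80, Mcl1 led in 26 of 49 BMCPs (53.1%, 38.3 to 67.5). Where a gene needed 50 reads to lead, Bcl2 led in 29 of 55 mature mast cells (52.7%, 38.8 to 66.3). At that minimum Mcl1 led in 14 of 31 BMCPs (45.2%, 27.3 to 63.97) and Bcl2 in 11 (35.5%, 19.2 to 54.6), with overlapping intervals. Those 14 include BMCP 46 and BMCP 80, and the numbers at 50 reads without them are not given here.

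Detection of pairs of members in the same cell was counted at 50 reads, with no comparison to the number that their separate shares would give. Bcl2 and Mcl1 shared 2 mature mast cells, of 36 with Bcl2 and 14 with Mcl1, and 4 BMCPs, of 13 and 18. Bcl2l1 and Mcl1 shared 1 mature mast cell and 2 BMCPs. Bcl2 and Bax were the pair most often together in mature mast cells, in 15 cells, of 36 with Bcl2 and 34 with Bax. In BMCPs they shared 5 cells, of 13 and 40. The commonest pairs in BMCPs were Mcl1 with Bax, of 18 and 40 cells, and Bax with Bid, of 40 and 24, each pair sharing 9 cells.

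BMCPs differ in Gzmb, which encodes the protease granzyme B and reached 100 CPM in 60 of 93 of them. Bcl2 was found mainly in the other 33. At least 50 Bcl2 reads were found in 11 of the 33 (33.3%, 17.96 to 51.8) and in 2 of the 60 (3.33%, 0.406 to 11.5), and pooled Bcl2 stood at 72.0 CPM (69.5 to 74.6) and 6.12 CPM (5.58 to 6.70). The share in the 33 cells overlapped that of mature mast cells. Bax did not follow this division, with 50 reads in 14 of the 33 cells and 26 of the 60. Bid stood at 103.2 CPM in the 33 cells and 185.4 CPM in the 60. Both cells with B cell genes were among the 33, and without them Bcl2 had 50 reads in 11 of 31 cells at 77.2 CPM, Bid stood at 89.6 CPM, and Mcl1 was at 42.9 CPM in place of 95.2.

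**Figure D4:**
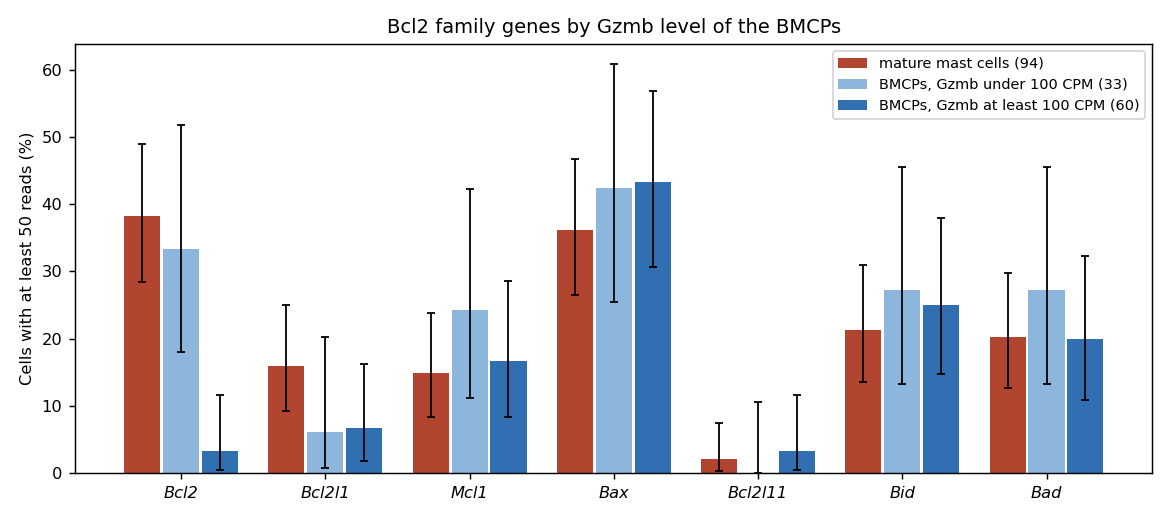
Share of cells with at least 50 reads of each gene in 94 mature mast cells (red), 33 BMCPs with Gzmb under 100 CPM (light blue) and 60 BMCPs with Gzmb of at least 100 CPM (dark blue), with exact Clopper-Pearson intervals. The bars for Bcl2 stand at 38.3%, 33.3% and 3.33%, and the intervals of the other 6 genes overlap among the 3 sets of cells.

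Genes with the most similar pattern over cells were looked for where a member was read in at least 50% of a group's cells, which held for Bcl2 in mature mast cells and Bax in both groups. For Bcl2 the 3 highest Spearman correlations of CPM over 94 mature mast cells were 0.41 with Rgs2, 0.32 with Arl2bp and 0.31 with Gm5256, out of 2891 genes. For Bax they were 0.37 with Rgs1, 0.35 with Nr1h2 and 0.35 with Grpel1 in mature mast cells. In BMCPs they were 0.35 with Akap8l, 0.35 with Pcyt2 and 0.34 with Clns1a over 93 cells and 2253 genes. None of the genes named for Bax in one group was named in the other, and values of this size in sparse counts are no finding.

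Other genes of the pathway were read from lists of related genes. Each count stands beside all 10556 genes at 5 CPM. Of those, 9.90% were 2-fold higher in mature mast cells and 19.2% in BMCPs, with a median log2 ratio of -0.25. Of 14 further Bcl2 family genes, 4 had at least 5 CPM in either group, 0 of them 2-fold higher in mature mast cells and 1 in BMCPs, with a median log2 ratio of -0.25. The most abundant per kilobase were Bbc3, the BH3-only gene of the p53 response, at 15.8 CPM in the mature cells against 18.1 CPM in the BMCPs, and Bcl2l13 at 80.5 and 64.1 CPM. Bmf, a BH3-only gene, was the 1 at 2-fold, with 0.244 CPM in the mature cells against 5.33 CPM in the BMCPs, and BMCP 26 held 87.3% of its BMCP reads. Those at 0 reads were 7, namely Bcl2a1a, Bcl2a1c, Bcl2l10, Bok, Bcl2l15, Pmaip1 and Hrk.

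Genes that act downstream of the mitochondria came next. Of 10 genes of the apoptosome, caspases and released mitochondrial proteins, 8 had at least 5 CPM and 0 differed by 2-fold, with a median of -0.17. Htra2, a protease released from mitochondria, had 40.04 CPM in the mature cells against 48.4 CPM in the BMCPs. All 7 inhibitors of apoptosis passed the minimum, with a median of -0.11, and 1 was 2-fold higher in mature mast cells. That was Birc5 (survivin), also a gene of dividing cells, at 11.3 CPM in the mature cells against 4.88 CPM in the BMCPs, with 69.7% of its reads in mature mast cell 59 and 99.8% in BMCP 48. Birc2 and Birc3, ubiquitin ligases of the TNF receptor pathway and the most abundant, had log2 ratios of -0.56 and 0.59.

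In the death receptor arm, 6 of 8 genes passed the minimum, with a median of -0.13 and 2 at 2-fold, both higher in BMCPs. Of all 10556 genes, 19.2% were 2-fold higher in BMCPs. Casp8, the caspase that cuts Bid, had 73.8 CPM in the mature cells against 173.2 CPM in the BMCPs, giving a log2 ratio of -1.22 that was -0.94 without BMCP 46 and BMCP 80. Fas, the death receptor, had 1.62 CPM in the mature cells against 5.03 CPM in the BMCPs, and reached 50 reads in 1 cell of each group. Tradd, an adaptor of the TNF receptor and with Casp8 the most abundant, had a log2 ratio of 0.08.

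Regulators of the members were measured from a list of 15 genes, all of which passed, with a median log2 ratio of -0.79. Of these, 1 was 2-fold higher in mature mast cells and 4 in BMCPs. Of all 10556 genes, 9.90% and 19.2% were, and the median over all genes was -0.25. Usp9x, a deubiquitinase that stabilises Mcl-1, had 74.5 CPM in the mature cells against 35.9 CPM in the BMCPs, and Huwe1, a ubiquitin ligase of Mcl-1, had 31.9 and 68.3 CPM. Their log2 ratios were 1.03 and -1.08. BMCP 95 held 33.6% of the BMCPs' Usp9x reads and BMCP 55 held 27.4% of their Huwe1 reads. The ratios without those cells are not given here. Stat5a, a transcription factor downstream of Kit and interleukin 3, had 23.8 CPM in the mature cells against 94.9 CPM in the BMCPs, for a ratio of -1.95. The kinase Pim1 had a ratio of -1.91 with at most 6.84 CPM in either group, and Foxo3, a transcription factor known to induce Bcl2l11, had -1.04. BMCP 52 held 45.9% of the BMCPs' Pim1 reads and BMCP 16 held 18.4% of their Foxo3 reads. Ratios without these cells are not given here either. Without BMCP 46 and BMCP 80, Usp9x was just short of 2-fold at 0.9996 and Stat5b, at -0.97 with them, was just past it. Ywhae and Rela, the most abundant of the list, had 0.24 and -0.79, or 0.24 and -0.65 without BMCP 46 and BMCP 80.

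Immediate early genes were included because they respond within minutes to handling and stimulation. Of 8 such genes, 6 passed, with a median of -1.63, and 4 were 2-fold higher in BMCPs. These were Fos at -2.33, Jun at -2.42, Fosb at -1.94 and Junb at -1.31. Over all 10556 genes the median was -0.25, and 19.2% were 2-fold higher in BMCPs. Ier2, with Jun the most abundant per kilobase, was at -0.80. Without BMCP 46 and BMCP 80, Egr1, at -0.98 with them, was just past 2-fold at -1.01. The 4 genes at 2-fold lay on the same side as Mcl1 and the BH3-only genes, and their part in those ratios was not tested.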

How the data were processed

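Peritoneal mast cells and BMCPs were sorted singly into 2 plates of 96 wells and their poly(A) RNA was copied to cDNA, amplified with 23 PCR cycles and read as 50-base reads, per the labels' protocols. The values deposited were whole-number read counts for each gene, not normalized, which the authors made with GSNAP and HTSeq 0.5.3p3 on mm10, per the submitters' processing notes. The annotation release and the strand setting are not given in the sources used here. Without strand, reads from exons that overlap on opposite strands cannot be told apart, and 25.5% of the exon bases of Bak1, 20.5% of Bad, 17.7% of Bid and 6.09% of Bcl2 overlap another gene's, while Bax shares 12.2% with a gene on its own strand. Ambiguous reads made up 2.97% for the mature cells against 3.24% for the BMCPs. Reads with no feature were 12.5% and 16.2%, and reads not aligned were 13.1% and 14.9%. Symbols, exon lengths and coordinates came from GENCODE M21 on GRCm38.

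CPM were each group's total count of a gene over its kept cells, scaled by their total on 46078 gene rows, leaving out ERCC and summary rows. Of these rows 45143 (97.97%) matched a symbol. Ratios used 1 CPM added to each group, and a 2-fold difference was called only at 5 CPM in either group. A cell was kept at 100000 reads. The stricter minimum of 500000 reads was an alternative. Doublets were not called, each well being sorted to hold 1 cell. Numbers of cells are those in the titles. TMM and RLE factors came from edgeR 4.0.16 in R 4.3.3, and the rest from Python 3.11.15 with scipy 1.17.1. The ratios were checked on Poisson counts simulated from the pooled BMCP profile with 200 genes changed. That check held no differences between cells, so it cannot speak to ratios that rest on few cells.

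The genes named were all 10 members, the genes at 2-fold in each pathway list, the 2 most abundant per kilobase in each list, and 3 genes by likeness to a member. Stat5b and Egr1 were named after their values were seen. One gene of the apoptosome list and one of the B cell list are not reported here and were left out of the values given for those lists. The members, lists and cell numbers were chosen with earlier results of these data known. Alternatives were TMM, RLE and ERCC scaling, totals without mast cell granule genes, other cell filters, per-cell means, another pseudocount, no minimum level, thinning and single cells left out. Blocks of columns, each cell left out in turn, the 50-read minimum for a leading gene, and shares, sums and leading genes without BMCP 46 and BMCP 80 were added after seeing the data. The blocks were the first and the last cells of each group in the order of the table's header, and whether they match plates is not stated.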

Additional observations from a re-analysis of the deposited data

How the results depend on the processing

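No paired analysis was possible because the numbers in the cells' titles name cells and pair nothing between the groups. Over the 15 ways of processing tried, including the main one, no gene called at 2-fold with pooled CPM changed sign. The median log2 ratio of the 7 genes with at least 5 CPM went from -0.89 to -0.65 with TMM, -0.67 with RLE, -0.69 without granule genes in the totals, -0.79 without the top cells of each gene and -0.79 in the first block of columns. ERCC scaling gave 0.000305, or -0.21 without BMCP 55, which was rich in ERCC reads. The distance from the median of all genes stayed between -0.84 and -0.53, but both ends set unlike medians side by side. At -0.53 each member had lost its top cells and the other genes had not. At -0.84 there was no minimum level, and the median of all genes was -0.02 over 22746 genes. In the other settings the distance lay between -0.68 and -0.55. Under ERCC scaling 2 genes passed 2-fold, 2 higher in mature mast cells and 0 higher in BMCPs; without BMCP 55 these were 2 and 1. The share of all genes 2-fold higher in mature mast cells rather than BMCPs also turned, at 32.8% against 7.41% under ERCC scaling. Mcl1 fell short of 2-fold under TMM and RLE, and under ERCC scaling with or without BMCP 55. It also did so without granule genes, without BMCP 46 and BMCP 80 or BMCP 46 alone, and in the second block. In the second block Bcl2l11 was at -3.66 and Bad at -1.46, beside a median of -0.25 over all genes. In the first block Bcl2l11 was at -0.94 and Bad at -0.13, beside a median of -0.24, so the lower Bad level in mature mast cells was not seen there relative to all genes. The sign of Bak1 was not settled, at -0.00395 in the second block.

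Cells with an anti-apoptotic read numbered 85.1% of mature mast cells and 54.8% of BMCPs. They numbered 69.1% and 40.9% with at least 5 reads, and 68.1% and 41.9% after thinning. The anti-apoptotic share in mature mast cells was 47.9% without division by length, and in BMCPs 18.3% from pooled CPM. The cause of these shifts was not tested. With 1 pooled sample a group, no difference has a replicate check over mice.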
